A study of Mus musculus with 8 samples.

Results

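The transcripts of 10 genes of the NF-κB pathway were followed in regulatory T (Treg) cells with and without Ripk1. The genes were chosen by name and not by a rule on their values, but with earlier results of these data known. They are the subunits *Rel*, *Rela*, *Relb*, *Nfkb1* and *Nfkb2*, the IκB genes *Nfkbia*, *Nfkbib* and *Nfkbid*, and the IκB kinase genes *Ikbkb* and *Ikbkg*. All 10 were found among the 42748 genes of the count table, each under 1 Ensembl identifier. CD4+ CD25+ cells were sorted from spleen and lymph nodes of chimeric *Ripk1* fl/fl *Foxp3* Cre/wt females, in which both *Ripk1* alleles of every cell are flanked by loxP sites and 1 of the *Foxp3* alleles carries a YFP and Cre knock-in. Because 1 X chromosome is silenced at random, Treg cells that use the knock-in allele express Cre, lose Ripk1 and are YFP+ (genotype label Ripk1 -/-), whereas those that use the wild-type allele keep Ripk1 and are YFP- (label Ripk1+/+). There were 4 libraries of each fraction, numbered 21, 46, 48 and 53, and no treatment. The sources used here give no age for these mice. All Cre-expressing cells also carry the knock-in at *Foxp3*, so that its effects and those of losing Ripk1 cannot be told apart. No source used here says that libraries of 1 fraction stem from different mice, and p-values then measure only how these libraries vary.

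NF-κB transcription factors are dimers of Rel-family proteins that IκB proteins hold back in the cytoplasm. In the canonical pathway, which TNF receptors and the T cell receptor use, the IκB kinase (IKK) complex marks IκBα for destruction and dimers of RelA or c-Rel with p50 enter the nucleus. In the non-canonical pathway, p100, the product of *Nfkb2*, is processed to p52, the usual partner of RelB. Ripk1 is a kinase and scaffold at the TNF receptor complex, to which IKK is recruited, and in Treg cells c-Rel is known for its role in switching on *Foxp3* during thymic development.

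Several NF-κB genes are themselves NF-κB targets, which is why matches to the κB consensus near their starts are shown here. Whether NF-κB acts through these matches was not tested. RefSeq promoter windows on GRCm38.p6, from 250 bases before to 50 bases after an annotated start, were given for 7 of the 10 genes, and not for *Relb*, *Nfkb1* and *Ikbkb*. The κB consensus, searched on both strands, was present in a window of 4 of the 7 (*Rel*, *Nfkb2*, *Nfkbia* and *Nfkbid*) and absent from the windows of *Rela*, *Nfkbib* and *Ikbkg*. Over all genes of the same table, 5.14% of 27025 held it. The capitals mark the matched bases, and 15 bases stand on each side, read 5′ to 3′ along the gene. The sites of *Rel* (chr11:23771036-23771076, minus strand), *Nfkbia* (chr12:55492652-55492691, minus strand), *Nfkb2* (chr19:46304683-46304723 and chr19:46304711-46304750, plus strand) and *Nfkbid* (chr7:30422165-30422204 and chr7:30422210-30422249, plus strand) read as follows.
Rel, 92 bases before the start: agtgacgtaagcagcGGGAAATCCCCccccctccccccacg
Nfkbia, 29 bases before the start: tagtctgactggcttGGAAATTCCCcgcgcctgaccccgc
Nfkb2, 39 bases before the start: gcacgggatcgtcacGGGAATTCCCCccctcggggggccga
Nfkb2, 11 bases before the start: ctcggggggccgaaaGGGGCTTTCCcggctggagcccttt
Nfkbid, 226 bases before the start: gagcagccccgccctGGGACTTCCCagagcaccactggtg
Nfkbid, 181 bases before the start: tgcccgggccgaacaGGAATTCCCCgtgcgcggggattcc
The sites of *Rel* and the first of *Nfkb2* each hold 2 overlapping matches. The pair in *Nfkbid* lies before the second of its 3 annotated starts, and the pair shown for *Nfkb2* before the first of its 3. The other windows of *Nfkb2* hold 2 further sites, at chr19:46305445-46305483 and chr19:46305690-46305729, which are not printed. The ETS core CCGGAA, searched on both strands, was present in a window of 1 of the 7 genes, *Ikbkg*, against 16.7% of all genes, and it did not overlap a κB match in any window of the 7. A match describes the letters only.

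The depth and purity of the libraries touch every value below. Total counts were 43737313 to 70782679 in YFP- and 29719251 to 55371610 in YFP+ libraries, and genes with at least 10 counts numbered 15425 to 16558 and 9571 to 15550. The lowest of both YFP+ ranges belongs to library 21, whose log2 expression correlated with no other library above 0.652, whereas every other library correlated with another at 0.866 or more. Results are therefore given with and without it, a choice made after its values were seen. *Ripk1* itself, on chromosome 13, had a mean of 29.4 ± 10.6 CPM (counts scaled to a common library size, SD over 4 libraries) in YFP- and of 22.5 ± 6.09 CPM (SD over 4 libraries) in YFP+ cells. Its log2 fold change was -0.38 (SE 0.39, adjusted p = 0.713 in edgeR's quasi-likelihood test). A count over the whole gene does not check the deletion of a part of it. The Treg and CD4 T cell markers summed to between 5415 and 6005 CPM in YFP- libraries and between 4388 and 6600 CPM in YFP+ libraries, with *Foxp3* and *Tnfrsf18*, no part of whose span is free of other annotated genes, listed at 0 in all 8. The sum covers markers that went both ways, as 6 of the 10 tested had a negative log2 fold change. With all 8 libraries edgeR called 2 of the 10 lower and 0 higher, beside 0.87% of all genes called in either direction. These were *Nrp1* (-1.48, adjusted p = 0.0328) and *Ctla4* (-1.26, adjusted p = 0.0373). Of the B cell markers, 13 of 14 were above 0 and summed to 1331 to 1859 CPM in YFP- libraries and to 2270, 1850, 6973 and 931 CPM in the YFP+ libraries 21, 46, 48 and 53, with the defining marker *Ms4a1*, likewise overlapped over its whole span, at 0. Most of the YFP- sum was *Ighm*, at 1164 to 1630 CPM, against 334, 688, 2122 and 515 CPM in YFP+ libraries. It was the 1 of the 13 tested with a negative log2 fold change, and the median of the 13 was 2.94. With all 8 libraries edgeR called 1 of them higher, beside 5 of all 15063 genes tested. Without the YFP+ library 21 it called 4 higher, beside 424 of 15832. Erythroid (92.3 to 357 against 292 to 5066 CPM) and myeloid and dendritic cell markers (41.5 to 99.1 against 67.5 to 805 CPM) were also highest in the YFP+ library 48. The part of these cells in the results below was not tested, except that values without the YFP+ libraries 21 and 48 are given for the members that changed.

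The question was whether the transcripts of the NF-κB core differ between the 2 fractions. The clearest differences were in *Ikbkb*, the catalytic IKK subunit of the canonical pathway, and *Nfkbid*, the nuclear IκB protein IκBNS. All YFP+ libraries were below all YFP- libraries for both genes, and both fell when the YFP+ library 21 was left out, *Ikbkb* 2.35-fold and *Nfkbid* 2.59-fold by group means. *Relb* and *Nfkb2*, the pair of the non-canonical pathway, also had all YFP+ below all YFP- libraries, by smaller amounts that did not pass the test across all genes. Such a separation was found in 10.6% of the 15063 genes tested, and in 13.7% of 15832 without the YFP+ library 21. *Rel*, *Rela*, *Nfkb1*, *Nfkbia*, *Nfkbib* and *Ikbkg* had overlapping groups. With all 8 libraries, edgeR called none of the 10 genes at an adjusted p under 0.05, against 0.87% of the 15063 genes tested. At an unadjusted p under 0.05 it had 1 of the 10, *Nfkbid*, against 12.6% of genes, and DESeq2 called 1, again *Nfkbid*, against 7.34%. Of the 10 log2 fold changes 7 were negative, with a median of -0.46 beside -0.02 over all genes tested. Without the YFP+ library 21, edgeR called 2 of the 10, both lower, against 3.97% of 15832 genes called lower, and the median over the 10 was -0.11 beside -0.01 over all genes. In bulk RNA, fewer cells of a type and less RNA per cell cannot be told apart.

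**Figure D1:**
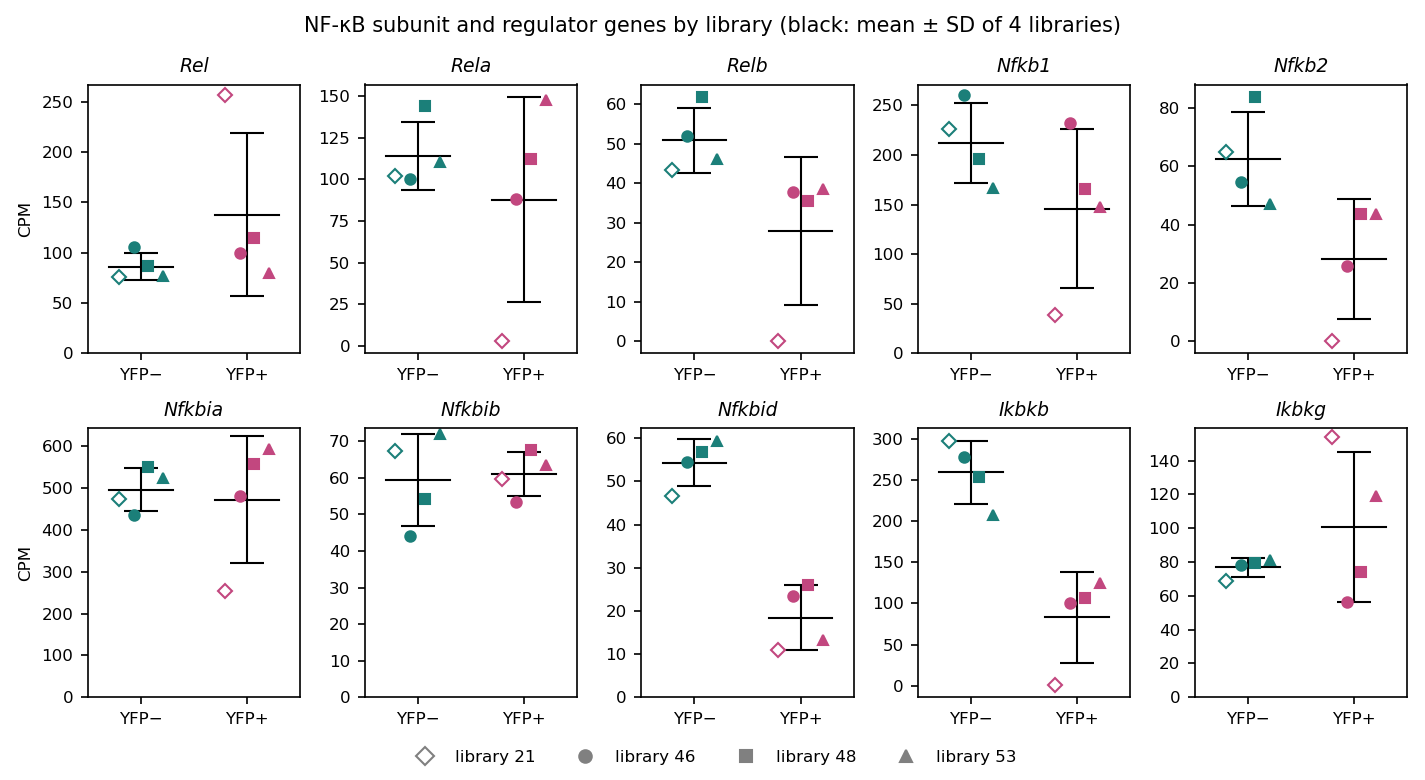
Each panel plots one of the 10 genes in TMM-scaled CPM (y axis, linear) for the 4 YFP- and the 4 YFP+ libraries (x axis); symbols give the library number, the open diamond is library 21, and the black lines are the mean ± SD of 4 libraries. In *Relb*, *Nfkb2*, *Nfkbid* and *Ikbkb* every YFP+ point lies below every YFP- point, and in *Rela*, *Relb*, *Nfkb2* and *Ikbkb* the YFP+ library 21 lies far below the other 3 YFP+ libraries.

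*Rel* encodes c-Rel, a subunit found mainly in cells of the blood lineages. In the order 21, 46, 48 and 53, which is kept below, it measured 75.7, 105, 86.6 and 76.7 CPM in YFP- libraries and 257, 99.8, 114 and 79.97 CPM in YFP+ libraries. The YFP+ library 21 was the highest of all 8, at 2.98 times the YFP- mean, and the other 3 YFP+ libraries lay within or just above the YFP- range. Its log2 fold change was 0.68 (95% interval -0.20 to 1.55, adjusted p = 0.484, edgeR) with all libraries. Without that library it was 0.18 (95% interval -0.25 to 0.60, adjusted p = 0.596).

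*Rela* encodes p65, the main activating subunit of the canonical pathway. It measured 102, 100, 144 and 111 CPM in YFP- libraries and 2.89, 88.4, 112 and 148 CPM in YFP+ libraries. In the YFP+ library 21 this was 61 counts, 2.49% of the mean of the other YFP+ libraries, and those 3 spanned the YFP- range. The log2 fold change was -0.38 (adjusted p = 0.887, edgeR), and 0.02 (95% interval -0.46 to 0.50, adjusted p = 0.963) without that library, so that the sign of the estimate turned with 1 library.

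*Nfkb1* encodes p105, the precursor of p50. It measured 226, 260, 196 and 166 CPM in YFP- libraries and 38.4, 232, 165 and 147 CPM in YFP+ libraries. Its groups overlapped, although the YFP+ library was the lower one in 4 of 4 numbers. For *Nfkb1* the log2 fold change was -0.54 (adjusted p = 0.659, edgeR) and, without the YFP+ library 21, -0.23 (95% interval -0.74 to 0.27, adjusted p = 0.562).

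*Relb* and *Nfkb2* differed in the same direction. *Relb* measured 43.3, 52.0, 61.9 and 46.2 CPM in YFP- libraries and 0, 37.7, 35.6 and 38.4 CPM in YFP+ libraries. *Nfkb2* measured 64.8, 54.5, 83.8 and 46.9 CPM in YFP- libraries and 0, 25.7, 43.5 and 43.5 CPM in YFP+ libraries. For both genes the groups did not overlap, with or without the YFP+ library 21, in which both had a count of 0, which allows up to 0.142 CPM. The lowest YFP- and the highest YFP+ library lay close together, at 43.3 and 38.4 CPM for *Relb* and at 46.9 and 43.5 CPM for *Nfkb2*.

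By means, *Relb* went from 50.8 ± 8.21 CPM (SD, n = 4) in YFP- to 27.9 ± 18.7 CPM (SD, n = 4) in YFP+ libraries, or to 37.2 ± 1.47 CPM (SD, n = 3) without the YFP+ library 21. Its log2 fold change was -0.86 (SE 1.27, adjusted p = 0.815, edgeR) and -0.46 (SE 0.16, adjusted p = 0.129) without that library, where DESeq2 gave an adjusted p of 0.0401 and called 3 of the 10 members lower beside 10.3% of all genes. *Nfkb2* went from 62.5 ± 16.01 CPM (SD, n = 4) to 28.2 ± 20.6 CPM (SD, n = 4), or to 37.6 ± 10.3 CPM (SD, n = 3). The log2 fold change of *Nfkb2* was -1.15 (SE 1.28, adjusted p = 0.740, edgeR) and -0.74 (SE 0.27, adjusted p = 0.143) without that library. Of the exon bases of *Nfkb2* 79.5% lie outside other annotated genes, the rest under genes on the opposite strand whose reads cannot be told apart without a strand setting, whereas *Rel*, *Rela*, *Relb*, *Nfkbia* and *Nfkbid* overlap no other gene.

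*Nfkbia* encodes IκBα, the inhibitor that IKK marks for destruction and that NF-κB itself induces again. It measured 474, 434, 549 and 523 CPM in YFP- libraries and 255, 480, 557 and 593 CPM in YFP+ libraries. Apart from the YFP+ library 21, at 46.9% of the mean of the other YFP+ libraries, the YFP+ values lay within or above the YFP- range. The log2 fold change was -0.07 (adjusted p = 0.936, edgeR), and 0.13 (95% interval -0.14 to 0.40, adjusted p = 0.548) without that library. The inhibitor IκBβ, the product of *Nfkbib*, measured 67.2, 44.2, 54.1 and 72.1 CPM in YFP- and 59.7, 53.5, 67.6 and 63.4 CPM in YFP+ libraries. All YFP+ values of *Nfkbib*, library 21 included, lay inside the YFP- range, and the log2 fold change was 0.04 (95% interval -0.54 to 0.62, adjusted p = 0.961), with a sign that turned under several alternatives. Only 65.0% of the exon bases of *Nfkbib* lie outside other annotated genes.

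*Nfkbid* encodes IκBNS, an atypical IκB protein that acts in the nucleus as a partner of NF-κB and is known to be needed for *Foxp3* induction and for Treg development. It measured 46.7, 54.6, 56.9 and 59.3 CPM in YFP- libraries and 11.0, 23.6, 26.1 and 13.2 CPM in YFP+ libraries. The highest YFP+ library was below the lowest YFP- library by a wide margin, and here the YFP+ library 21 was close to library 53. The mean went from 54.3 ± 5.47 CPM (SD, n = 4) to 18.5 ± 7.47 CPM (SD, n = 4). With all libraries the log2 fold change was -1.56 (SE 0.37, 95% interval -2.41 to -0.70), with an unadjusted p of 0.00297 and an adjusted p of 0.138 over all genes (edgeR), while DESeq2 gave an adjusted p of 4.34e-04. Without the YFP+ library 21 *Nfkbid* fell to 20.9 ± 6.84 CPM (SD, n = 3), with a log2 fold change of -1.38 (SE 0.26, adjusted p = 0.0295, edgeR). Without the YFP+ libraries 21 and 48, the log2 fold change was -1.57 (adjusted p = 0.0329), and without both libraries of number 21 it was past the threshold no longer (adjusted p = 0.0676).

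Over the 8 libraries, the 5 genes whose log2 expression followed that of *Nfkbid* most closely, among 8214 genes compared, were *Gvin1* (r = 0.976), *Slc33a1* (0.971), *Tbc1d30* (0.969), *Naa20* (0.969) and *Tmem129* (0.967). These are descriptions over libraries that share the 2 groups. No other member was among them.

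*Ikbkb* encodes IKKβ, the kinase that phosphorylates IκBα. It measured 298, 279, 254 and 208 CPM in YFP- libraries and 0.616, 101, 106 and 124 CPM in YFP+ libraries. The groups did not overlap, and the 3 YFP+ libraries other than 21 lay close together, well below the lowest YFP- library. In the YFP+ library 21, *Ikbkb* had 13 counts, against 4531 to 5524 in the other YFP+ libraries. With all libraries the log2 fold change was -1.64 (SE 1.04, adjusted p = 0.529, edgeR). Without that library *Ikbkb* fell from 259.6 ± 38.7 CPM (SD, n = 4) to 110.5 ± 12.3 CPM (SD, n = 3), and the log2 fold change was -1.24 (SE 0.15, 95% interval -1.60 to -0.88, adjusted p = 0.0125). It was also past the threshold without both libraries of number 21 (-1.16, adjusted p = 0.0434), where it was the 1 member called beside 1.12% of all genes called lower. Without the YFP+ libraries 21 and 48 the value was -1.21 (adjusted p = 0.0263), and *Ikbkb* and *Nfkbid* were the 2 members called beside 4.28% of all genes called lower. Of its exon bases 77.8% lie outside other genes and 100% outside other genes' exons. The study's drawn list of genes lower in YFP+ cells holds *Ikbkb* and was chosen on these libraries, so it is not independent of the values given here.

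*Ikbkg* encodes NEMO, the scaffold without which IKK is not activated by the canonical pathway, and lies on the X chromosome. It measured 68.5, 78.2, 79.5 and 81.3 CPM in YFP- libraries and 154, 56.2, 74.1 and 119 CPM in YFP+ libraries. The YFP- values were tightly grouped and the YFP+ values spread to both sides of them. For *Ikbkg* the log2 fold change was 0.39 (95% interval -0.37 to 1.15, adjusted p = 0.650, edgeR), and 0.10 (95% interval -0.47 to 0.67, adjusted p = 0.832) without the YFP+ library 21.

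**Figure D2:**
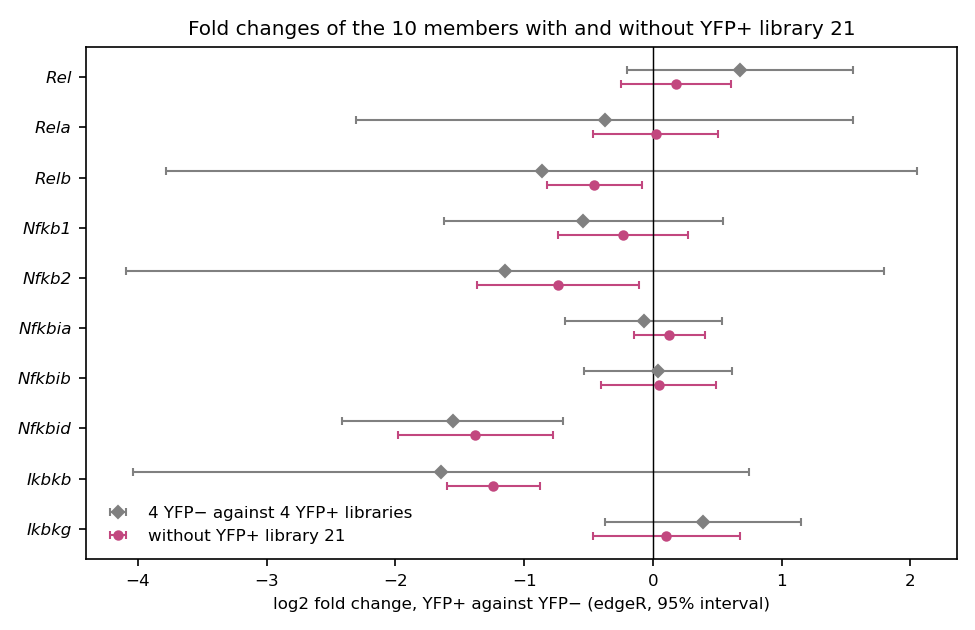
The x axis is the edgeR log2 fold change of YFP+ against YFP- cells with its 95% interval, and each row is one of the 10 genes, with all 8 libraries (grey diamonds) and without the YFP+ library 21 (coloured circles). The intervals of *Nfkbid* lie below 0 in both settings, that of *Ikbkb* narrows from -4.04 to 0.75 down to -1.60 to -0.88, and those of *Relb* and *Nfkb2* also come to lie below 0 without being past the adjusted threshold.

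A single-gene test on log2(CPM + 1) asked only whether the libraries separate. For *Relb*, *Nfkb2*, *Nfkbid* and *Ikbkb* the exact two-sided permutation p was 0.0286, the smallest that 70 splits of 4 against 4 libraries can give, and 0.0714 after adjustment over the 10 genes tested in this way. For the other 6 genes it was 0.2 to 0.886. Among all genes tested, 10.6% had all YFP+ below all YFP- libraries, beside 4 of these 10 genes, and 7.83% had all YFP+ libraries above, beside none of the 10. Without the YFP+ library 21 the same 4 genes were separated, beside 13.7% of all genes.

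How far the YFP+ library 21 fell short differed from gene to gene. *Relb* and *Nfkb2* were at 0, *Ikbkb* at 0.558%, *Rela* at 2.49% and *Nfkb1* at 21.1% of the mean of the other 3 YFP+ libraries. *Nfkbid* was at 52.7%, *Nfkbib* at 97.1%, *Ikbkg* at 186% and *Rel* at 262%. Such losses were found across the table. Of 2316 genes with a YFP- mean of 40 to 80 CPM, the range of *Relb* and *Nfkb2*, 6.13% had a count of 0 in that library, against 0%, 0% and 0.0432% in the YFP+ libraries 46, 48 and 53. Of 1860 genes at 80 to 200 CPM, the range of *Rela*, 12.6% were under 3 CPM there, and of 459 genes at 200 to 350 CPM, the range of *Ikbkb*, 3.49% were under 1 CPM.

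Ratios between 2 genes within a library do not depend on depth or scaling, although they do not show which of the pair changed. Of the 6 ratios compared, 2 separated the groups. The number of *Ikbkb* counts per *Ikbkg* count was 4.34, 3.56, 3.19 and 2.56 in YFP- libraries and 0.00415, 1.79, 1.43 and 1.05 in YFP+ libraries. The number of *Nfkbid* counts per *Nfkbia* count was 0.0985, 0.126, 0.104 and 0.113 in YFP- libraries and 0.0434, 0.0492, 0.0468 and 0.0222 in YFP+ libraries. In both, all YFP+ values lay below all YFP- values. The log2 difference was -3.37 for the kinase pair, or -1.27 without the YFP+ library 21, and -1.51 for the IκB pair, or -1.56 without it. Each had an exact two-sided permutation p of 0.0286, the smallest possible, which became 0.0857 after adjustment over the 6 ratios, so neither passed.

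The ratios between subunits overlapped. *Relb* to *Rela* was 0.425, 0.520, 0.430 and 0.417 in YFP- libraries and 0.426, 0.317 and 0.260 in the YFP+ libraries 46, 48 and 53, a log2 difference of -0.45 without library 21 (exact permutation p = 0.0857, adjusted 0.171). *Nfkb2* to *Nfkb1*, the non-canonical over the canonical precursor, was 0.287, 0.209, 0.428 and 0.282 in YFP- libraries and 0.111, 0.263 and 0.295 in those 3 YFP+ libraries (exact permutation p = 0.371). *Rel* to *Rela* was 0.602 to 1.05 in YFP- libraries and 0.540 to 1.13 in those 3, whereas library 21 stood at 88.2. *Nfkbia* to *Rela* was 3.81 to 4.73 in YFP- libraries, 4.01 to 5.42 in those 3 and 87.4 in library 21.

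**Figure D3:**
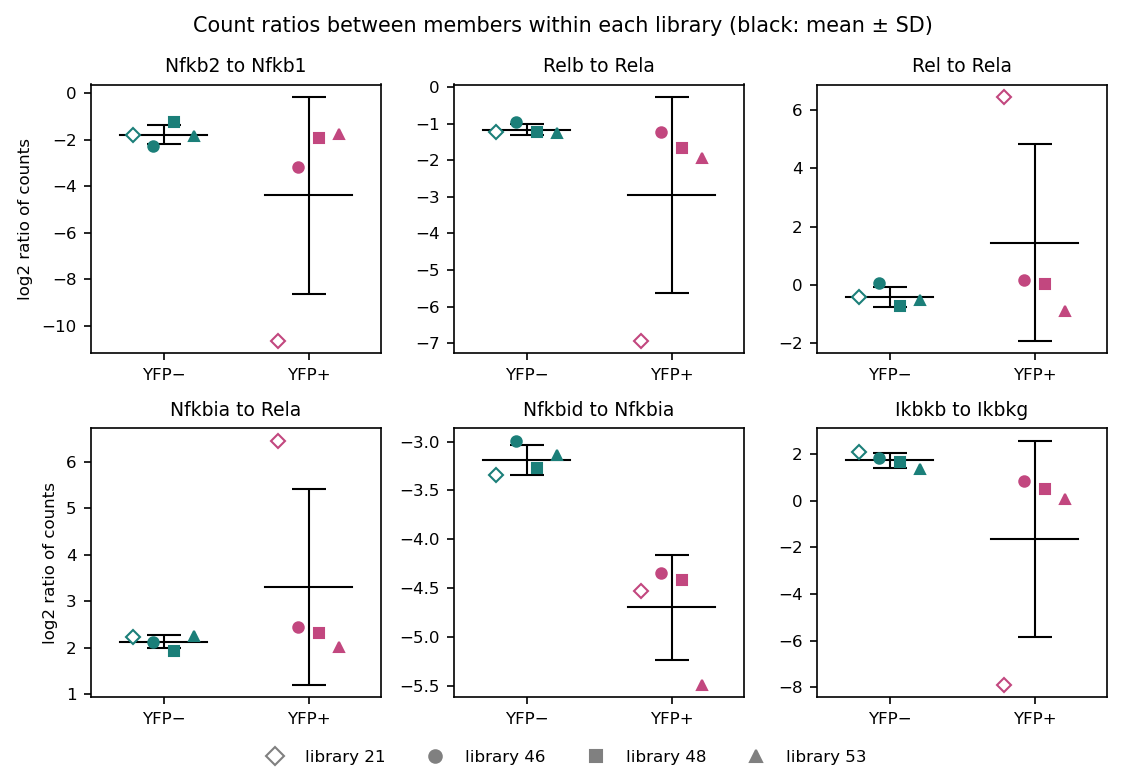
Each panel plots the log2 ratio of the counts of 2 genes (y axis) within each YFP- and YFP+ library (x axis), with 0.5 added to both counts; symbols give the library number, the open diamond is library 21, and black lines are the mean ± SD of 4 libraries. The groups are separate for *Nfkbid* to *Nfkbia* and for *Ikbkb* to *Ikbkg*, and the YFP+ library 21 stands far from the other YFP+ libraries in all panels but that of *Nfkbid* to *Nfkbia*.

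Levels of different genes were compared per kilobase of all annotated exons of a gene. The lengths include bases that lie within other genes, where reads may not have been counted. This touches most *Nfkbib*, *Ikbkb* and *Nfkb2*, with 65.0%, 77.8% and 79.5% of exon bases outside other genes, and its part in the order was not tested. In YFP- libraries *Nfkbia* led with 307 ± 31.8 CPM per kilobase (SD, n = 4) and did not overlap the next gene. It was followed by *Rela* with 37.2 ± 6.64, *Nfkbib* with 27.4 ± 5.85, *Nfkbid* with 23.2 ± 2.33 and *Nfkb1* with 17.6 ± 3.33 CPM per kilobase. Then came *Nfkb2* with 13.6 ± 3.49, *Ikbkb* with 13.6 ± 2.03, *Relb* with 13.1 ± 2.11, *Rel* with 11.5 ± 1.84 and *Ikbkg* with 9.48 ± 0.707 CPM per kilobase. From *Rela* to *Rel*, the libraries of each gene overlapped those of the next, so only the first and the last place were separated from their neighbours. The inhibitor transcript *Nfkbia* was thus the most abundant of the 10 on this scale in both fractions, with 338 ± 36.0 CPM per kilobase (SD, n = 3) in YFP+ libraries without library 21. In those 3 libraries *Nfkbid* moved from rank 4 to rank 8, at 8.93 ± 2.92, and *Ikbkb* from rank 7 to rank 10, at 5.79 ± 0.644 CPM per kilobase.

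The place of *Ikbkb* and *Nfkb1* depends on the length used. All their exons cover 19078 and 12061 bases, against 4845 and 4149 bases for the longest annotated transcript. Per kilobase of the longest transcript, *Ikbkb* ranked 2, at 53.6 ± 7.99, and *Nfkb1* ranked 3, at 51.1 ± 9.69 CPM per kilobase (SD, n = 4), in YFP- libraries. On that scale *Ikbkb* ranked 5 in the YFP+ libraries without 21. Among the 5 subunits alone, per kilobase of exons, *Rela* made up 39.9% ± 4.26 (SD, n = 4) of the summed level in YFP- libraries and 44.7% ± 7.93 (SD, n = 3) in the YFP+ ones without 21. *Nfkb2* made up 14.5% ± 2.28 and 9.68% ± 2.10, and *Relb* 14.04% ± 0.863 and 11.5% ± 1.01. The shares of *Nfkb2* and *Relb* did not overlap between the groups, and in the YFP+ library 21 *Rel* alone made up 89.3% of the sum.

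The other genes of the pathway were read in 10 lists chosen by function. With all 8 libraries, edgeR called no gene of these lists. The 2 genes of each list with the smallest unadjusted p are named in what follows, with any that passed without the YFP+ library 21. At the receptor, where TNF-family receptors recruit their adaptors, 10 receptors of 13 were tested. *Tnfrsf1b*, which encodes TNFR2 and is known for its high level on Treg cells, fell without that library from 197 ± 61.9 (SD, n = 4) to 87.0 ± 3.45 CPM (SD, n = 3; -1.19 on the log2 scale, adjusted p = 0.0352, edgeR). The death receptor *Fas* went from 97.6 to 134 CPM (0.45, adjusted p = 0.181). *Tnfrsf13c*, the BAFF receptor of B cells, named after its values were seen, rose by 3.21 (adjusted p = 0.0433, edgeR), where 424 of all 15832 genes were called higher. It measured 4.78 to 6.85 CPM in YFP- libraries and 0, 28.3, 118 and 12.8 CPM in the YFP+ libraries 21, 46, 48 and 53. The part of B cells in these values was not tested.

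Of the 11 ligands none passed in either setting (0 with edgeR, 0 at an unadjusted p under 0.05), and 10 of 11 were negative with a median of -0.47 without the YFP+ library 21. *Tnf* measured 9.57 to 21.7 CPM in YFP- and 0, 3.49, 3.14 and 0 CPM in YFP+ libraries, and *Tnfsf8*, which encodes CD30 ligand, 114 to 137 and 59.96 to 130 CPM. Among 16 adaptors and ligases *Traf1* fell without that library, from 283 ± 18.8 (SD, n = 4) to 154 ± 47.4 CPM (SD, n = 3; -0.89, adjusted p = 0.0472, edgeR). *Traf3*, an adaptor that keeps the non-canonical pathway shut, went from 93.9 to 57.2 CPM (-0.72, adjusted p = 0.316). None of the 8 genes that relay the T cell receptor signal to IKK passed, and none had an unadjusted p under 0.05 in either setting. *Bcl10*, an adaptor of this relay, measured 61.6 CPM in YFP- libraries and 74.8 CPM in the 3 YFP+ libraries. The kinase *Map3k8* measured 30.4 to 40.9 CPM in YFP- libraries, 16.9 to 35.8 CPM in the same 3, and 216 CPM in the YFP+ library 21.

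Around the members themselves, none of the 12 other IκB and IKK genes passed in either setting, with a median of -0.33 without the YFP+ library 21, where 5 of 12 had an unadjusted p under 0.05 beside 24.8% of all genes. *Nfkbiz*, which encodes the nuclear IκBζ and is also in the study's drawn list, measured 99.2 to 121 CPM in YFP- and 61.3, 69.1, 41.4 and 106 CPM in YFP+ libraries (-0.64, adjusted p = 0.424 with all libraries, edgeR). *Nkiras1*, whose product binds IκB proteins, measured 17.5 to 27.6 CPM and 0.0948, 11.8, 6.98 and 2.52 CPM (-2.07, adjusted p = 0.450). *Chuk*, the IKKα partner of *Ikbkb*, named after its values were seen, measured 68.9, 92.2, 68.5 and 45.8 CPM in YFP- and 75.7, 29.5, 42.2 and 23.4 CPM in YFP+ libraries. Without the YFP+ library 21 its log2 fold change was -1.13 (adjusted p = 0.0694).

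Of the 8 deubiquitinases and brakes, *Tnfaip3*, which encodes A20 and was named after its values were seen, fell without the YFP+ library 21 from 86.7 ± 13.5 (SD, n = 4) to 47.8 ± 4.49 CPM (SD, n = 3; -0.86, adjusted p = 0.0259, edgeR), and in that library measured 0.0474 CPM. *Otulin* and *Tax1bp1* measured 12.2 and 406 CPM in YFP- libraries and 13.5 and 435 CPM in the 3 YFP+ libraries. Among 8 tested genes of IκB degradation, *Ube2d3*, a ubiquitin-conjugating enzyme, rose without that library from 495 ± 62.1 (SD, n = 4) to 746 ± 27.2 CPM (SD, n = 3; 0.58, adjusted p = 0.0382), and *Rbx1* went from 140 to 187 CPM (0.42, adjusted p = 0.117). In that setting 424 of all 15832 genes were called higher. Of 8 coactivators, again without that library, *Carm1* (-1.09, adjusted p = 0.0807) did not pass.

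Among the 26 classical NF-κB target genes 25 were tested without the YFP+ library 21, and 2 fell, *Tnfaip3* and *Traf1*, while none rose. That is beside 3.97% of all genes called lower, and the median of the list was -0.34. *Cd83*, an activation marker, measured 341 to 489 CPM in YFP- and 186, 219, 309 and 120 CPM in YFP+ libraries (-0.88 without library 21, adjusted p = 0.133, edgeR). Of 10 ETS family factors, *Ets1*, a factor abundant in resting T cells, rose without library 21 from 1831 ± 178 (SD, n = 4) to 2903 ± 456 CPM (SD, n = 3; 0.66, adjusted p = 0.0321), and *Elf4* went from 140 to 101 CPM (-0.48, adjusted p = 0.325). *Ets1* was the 1 factor of this list called higher, beside 424 of all 15832 genes.

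**Figure D4:**
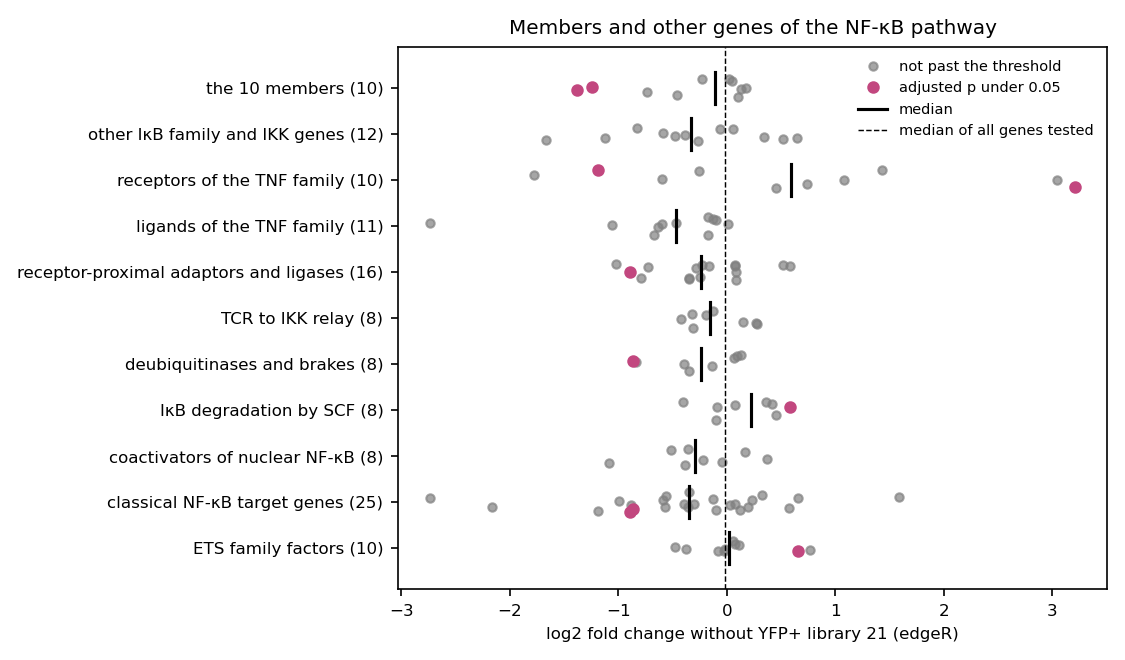
The x axis is the edgeR log2 fold change of YFP+ against YFP- cells without the YFP+ library 21, and each row is a list with its number of tested genes; each point is a gene, coloured points had an adjusted p under 0.05, black bars are list medians and the dashed line is the median of all genes tested. Of the 10 members *Nfkbid* and *Ikbkb* are coloured, both below 0, and 6 of the other 10 lists hold 1 or 2 coloured points.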

How the data were processed

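RNA of sorted YFP- and YFP+ CD4+ CD25+ cells was sequenced from NEBNext low-input libraries, 4 per fraction. The table the authors deposited holds raw whole-number counts for each Ensembl gene and library, and columns were assigned by names equal to the library titles. The submitters' processing notes name Trim Galore, STAR and mm10, and no source used here gives their versions, the counting tool, its annotation or whether strand was used. Without a strand setting, reads of genes on opposite strands that overlap cannot be told apart.

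The gene test was the quasi-likelihood F test of edgeR 4.0.16 under R 4.3.3, with condition as its term and TMM factors. Low genes were removed by filterByExpr (at least 10 counts in enough libraries, 15 in total). P-values were adjusted by the Benjamini-Hochberg method over all genes tested, at a threshold of 0.05. The SE is the size of the log2 fold change over the square root of F, and 95% intervals use the model's degrees of freedom. CPM are counts over TMM-scaled library sizes. Exact two-sided permutation tests used log2(CPM + 1) or log2 count ratios with 0.5 added to both counts. The test was repeated with upper-quartile or RLE factors, without a filter or with a stricter one (4 libraries at 5 CPM), with robust dispersion, with library number as a block, with DESeq2 1.42.0, and with libraries left out. The script for the gene test was tested on simulated data. Coordinates, lengths and overlaps were read from GENCODE M21 (GRCm38), in which 99.5% of the 42748 identifiers were found, and promoters from RefSeq on GRCm38.p6. Total counts were 29719251 to 70782679 per library, and 3 counts correspond to 0.0374 to 0.142 CPM, a floor that covers counting error only.

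The 10 members, the 10 pathway lists and the 6 marker lists were chosen with earlier results of these data known. All members are named. Outside them, the rule named pathway genes past the threshold with all 8 libraries or else the 2 with the smallest unadjusted p per list, *Ripk1*, and the 5 genes whose log2 CPM (prior count 2, mean of at least 3) correlated best with the member of the smallest unadjusted p. Of the genes the rule named, 1 is not reported here. CD8 T and NK cell markers summed to between 34.6 and 46.6 CPM in YFP- libraries and between 35.8 and 151 CPM in YFP+ libraries. For stromal and endothelial markers the ranges were 296 to 330 and 275 to 396 CPM.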

Additional observations from a re-analysis of the deposited data

Results flagged for a closer look

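In each group of 4 libraries, the gap between the highest or lowest library and its nearest neighbour was set against the whole range of the group, with Dixon's 95% critical value for 4 samples. Chance alone flags about 1 in 20 groups, or 1.6 of the 32 groups checked, and 11 stood out. The ratios are built from the same genes as the levels, so the groups are not separate checks. A single library that stands apart can be flagged several times, and the 2 numbers cannot be set against each other as a test. The YFP+ library 21 was far below the other YFP+ libraries in the level of *Rela* (gap 0.86 of the range), *Relb* (0.98), *Nfkb2* (0.865) and *Ikbkb* (0.952). The same library was apart in the ratios of *Nfkb2* to *Nfkb1* (0.841), *Relb* to *Rela* (0.875) and *Ikbkb* to *Ikbkg* (0.911), all low, and of *Rel* to *Rela* (0.856) and *Nfkbia* to *Rela* (0.902), both high. In the YFP+ library 53 the ratio of *Nfkbid* to *Nfkbia* was low (0.844), and in the YFP- library 46 the ratio of *Relb* to *Rela* was high (0.864).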

How the results depend on the processing

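The number of genes called, 131 with all 8 libraries, ranged from 0 to 1052 when 1 library was left out, the highest without the YFP+ library 21. It was 0 without both libraries of number 46, 48 or 53, 10 without a filter, 9 with the stricter filter, 940 without the YFP+ libraries 21 and 48, 1308 with DESeq2 and 3175 with DESeq2 without the YFP+ library 21. Of the 10 members 0 to 2 were called with 1 library left out, 1 without both libraries of number 21, 2 without the YFP+ libraries 21 and 48, 1 with DESeq2 and 3 with DESeq2 without the YFP+ library 21. With the library number as a block 0 genes were called, and 0 without both libraries of number 21. The labels do not say that a number marks a shared mouse, so the numbers were not taken as pairs in the main test and the block is the alternative. Same-numbered libraries deviated together weakly (r = 0.0489, 0.0682, 0.140 and 0.0950), and differently numbered ones at r = -0.120 to 0.0677. These values do not decide whether a number marks a shared mouse. Beside the 0 calls of the block, 1440 genes and 1 member had an unadjusted p under 0.05. An exact sign-flip test of the ratios over the 4 numbers cannot go below p = 0.125, and none passed.

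The log2 fold change of *Rela* ranged from -0.75 to 0.021 with 1 library left out, and was 0.043 without the YFP+ libraries 21 and 48 and 0.032 with DESeq2 without the YFP+ library 21. That of *Nfkbia* ranged from -0.21 to 0.13, and was 0.11 without both libraries of number 21, with or without the block, 0.11 without the YFP+ libraries 21 and 48 and 0.14 with DESeq2 without the YFP+ library 21. That of *Nfkbib* ranged from -0.083 to 0.14, and was -0.047 without a filter, -0.060 and -0.061 without both libraries of number 46 and 48 and -0.031 without the YFP+ libraries 21 and 48. That of *Ikbkg* was -0.012 with the block without both libraries of number 21. The causes were not tested. *Rel*, *Relb*, *Nfkb1*, *Nfkb2*, *Nfkbid* and *Ikbkb* kept their sign in all 22 alternatives, from -1.77 to -1.38 for *Nfkbid* and from -2.14 to -1.16 for *Ikbkb*. DESeq2 without the YFP+ library 21, the block without both libraries of number 21, and the other scalings of the separated genes were chosen after the data were seen.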
